A study of Mus musculus with 2 samples.

Results

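The aminoacyl-tRNA synthetases are the enzymes that load each amino acid onto its transfer RNA, and 37 genes of this family were followed in chromatin-bound RNA of mouse macrophages. They were all genes whose symbol is 1 letter followed by "ars", with or without a final digit, together with Eprs, Farsa and Farsb, where a protein-coding isoform was annotated. The rule took no measured value, and it drew the 37 genes from 55536 annotated genes, of which 22028 were protein coding. Of these, 20 genes encode enzymes of the cytosol and 17, named with a final 2, encode enzymes of mitochondria. The cells were bone-marrow-derived macrophages of C57BL/6J mice. They were exposed to lipid A, the part of bacterial lipopolysaccharide that Toll-like receptor 4 senses, at 100 ng/ml for 12 h, kept without it for 12 h, and exposed to 100 ng/ml once more for 75 min. Chromatin-bound RNA depleted of ribosomal RNA was sequenced in 2 libraries of this 1 condition, replicates 1 and 2, which started from 250 and 500 ng of RNA. Both libraries carried the same donor entry and the labels do not say whether they came from separate cultures, so the spread between them may be technical. The design has 1 group and holds no contrast, so what follows are levels with their SD (n = 2), and nothing was tested between treatments.

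Each synthetase recognises its own tRNAs and joins the matching amino acid to their end, so protein synthesis stops where any one of them fails. Mitochondria translate a small set of membrane proteins with their own tRNAs, and most of the enzymes that charge those tRNAs come from separate nuclear genes whose products are imported. In macrophages, as in other cells, several cytosolic synthetase genes are known targets of ATF4, the transcription factor that answers amino acid shortage.

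Replicate 1 held 18445009 expected counts, the reads that the counting program assigns to a gene, and replicate 2 held 17686824. The 37 synthetase genes took 17921 and 15960 of the counts on annotated genes, or 0.0975% (95% Wilson interval 0.0960 to 0.0989) in replicate 1 and 0.0905% (0.0891 to 0.0919) in replicate 2. Such intervals cover counting error only. All 8 macrophage markers reached 1 TPM in both libraries, where TPM is the share of the library that a transcript holds, corrected for its length. The summed level of those markers was 1178 TPM in replicate 1 and 788 TPM in replicate 2. Markers of B cells, of T and NK cells and of neutrophils had at most 4 counts per list and library. Fibroblast markers had 35 and 65 counts, and erythroid markers had 29 and 11, led by Alas2. Levels are those of a program that aligns reads to the transcripts, unless the alignment-free program, a second one run on the same reads, is named. In bulk libraries, fewer cells with a transcript and less RNA per cell cannot be told apart.

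Genes of cytosolic enzymes had higher levels in chromatin-bound RNA than those of mitochondrial enzymes. The median over the 20 cytosolic genes was 13.9 TPM in replicate 1 and 12.5 TPM in replicate 2 (13.2 ± 0.986, SD, n = 2), against 2.77 and 3.02 TPM over the 17 mitochondrial genes (2.90 ± 0.177). The medians of the 2 kinds lay far further apart than the libraries. That SD does not measure the spread among genes, which was wide. Mean levels ran from 3.97 to 89.3 TPM over cytosolic and from 0.405 to 27.0 TPM over mitochondrial genes, so single genes of the 2 kinds overlap. For scale, the 9283 protein-coding genes at a mean of at least 1 TPM had a median of 8.68 and 8.26 TPM. Added up, the cytosolic genes made 488 and 432 TPM, and the mitochondrial genes 112 and 89.9 TPM. Every one of the 20 cytosolic genes and 13 of the 17 mitochondrial genes reached 1 TPM in both libraries, where 40.1% of all protein-coding genes did. At 10 TPM the counts were 11 of 20 and 2 of 17, where 17.9% of protein-coding genes passed.

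**Figure D1:**
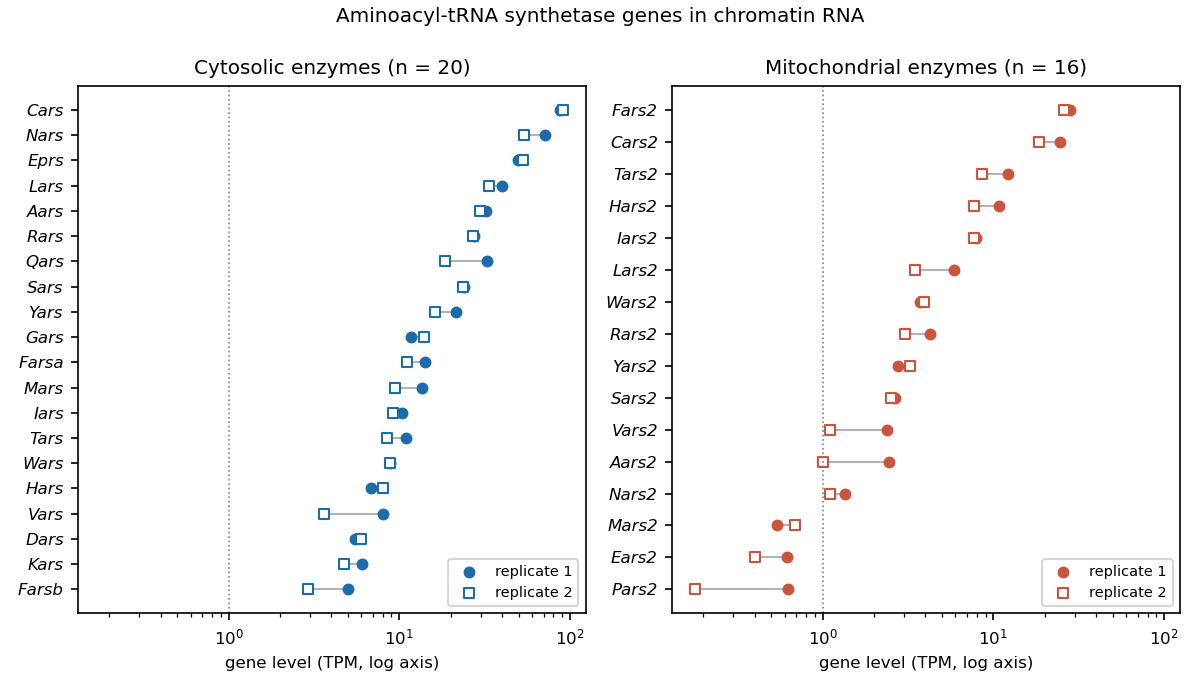
Level of synthetase genes in TPM on a log axis, with cytosolic enzymes on the left and mitochondrial enzymes on the right. Filled circles are replicate 1, open squares are replicate 2, grey lines join the libraries, and the dotted line marks 1 TPM. The plot shows 20 cytosolic and 16 mitochondrial genes. Cytosolic genes ran from Cars near 90 TPM down to Farsb at 5.0 and 2.94 TPM in replicates 1 and 2, while Mars2, Ears2 and Pars2 stayed below 1 TPM.

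Among cytosolic enzymes, the gene of the cysteine enzyme stood highest. Cars (chromosome 7, 143557230 to 143600090, minus strand, mm10) had 1818 counts or 87.9 TPM in replicate 1 and 1911 counts or 90.6 TPM in replicate 2. Nars, which charges asparagine, followed with 71.8 and 53.8 TPM. Eprs (chromosome 1, 185363044 to 185428360, plus strand) encodes 1 protein with both the glutamate and the proline enzyme, and it had the most counts of the family, 3323 and 3457, at 49.4 and 52.9 TPM. Cars thus ranked first in both libraries, while Nars and Eprs lay within 1 TPM of each other in replicate 2. Lars, the leucine enzyme, had 40.05 and 33.4 TPM. Aars (chromosome 8, 111033144 to 111057664, plus strand), the alanine enzyme, had 32.3 and 29.9 TPM. Rars, the arginine enzyme, had 27.4 and 27.1 TPM. The order of these 3 genes was the same in both libraries, but by the alignment-free program Rars, at 45.2 and 44.0 TPM, stood above Aars, at 35.4 and 33.0 TPM. By that program the mean of Rars also exceeded that of Lars, 44.6 against 43.4 TPM, though not in replicate 1. Yars, the tyrosine enzyme, had a mean of 36.6 TPM, above the 34.2 TPM of Aars, though not in replicate 2.

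The lower end of the cytosolic enzymes was held by 3 genes within a narrow range. Farsb, the beta subunit of the phenylalanine enzyme, had 5.0 TPM in replicate 1 and 2.94 TPM in replicate 2, from 98 and 59 counts. Kars, the lysine enzyme, had 6.05 and 4.77 TPM, and Dars, the aspartate enzyme, had 5.52 and 5.98 TPM. Their order differed between the libraries, so they are not set apart from each other, nor from Vars, the valine enzyme, at 7.99 and 3.60 TPM. The alpha subunit of the phenylalanine enzyme, Farsa, stood above its partner at 14.1 and 11.1 TPM. By the alignment-free program the gap was smaller, with Farsa at 17.7 and 15.7 TPM and Farsb at 17.5 and 11.3 TPM. The remaining 9 cytosolic genes ranged in mean level from 7.40 TPM in Hars, the histidine enzyme, to 25.5 TPM in Qars, the glutamine enzyme. In all, 15 of the 20 cytosolic genes and 4 of the 17 mitochondrial genes had a mean above the median mean level of expressed protein-coding genes, 8.51 TPM.

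Mitochondrial enzymes had 2 genes well above the rest. Fars2 (chromosome 13, 36117412 to 36726280, plus strand), the phenylalanine enzyme of mitochondria, spans 608869 bases, and it had 421 counts or 28.05 TPM in replicate 1 and 374 counts or 26.0 TPM in replicate 2. Cars2, the mitochondrial cysteine enzyme, had 24.6 and 18.5 TPM. Fars2 was the higher of the pair in both libraries. Tars2, which charges threonine, had 12.2 and 8.63 TPM, and Hars2, which charges histidine, had 10.7 and 7.68 TPM. Iars2, for isoleucine, had 7.92 and 7.74 TPM, and Lars2, for leucine, had 5.89 and 3.49 TPM. In replicate 2 Hars2 and Iars2 were level, and the mean of Hars2 exceeded that of Iars2 by less than its own SD of 2.15 TPM.

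At the bottom, Pars2, Ears2 and Mars2 stayed below 1 TPM in both libraries. Pars2, the proline enzyme, had 13 and 8 counts, or 0.63 and 0.18 TPM. Ears2, the glutamate enzyme, had 36 and 20 counts, or 0.62 and 0.40 TPM. Mars2, the methionine enzyme, had 102 and 118 counts, more than either, but 0.54 and 0.69 TPM once length was taken into account. The spread between the libraries covers the differences among these 3 genes. A further 7 mitochondrial genes had means between 1.24 TPM in Nars2 and 3.82 TPM in Wars2.

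For 17 amino acids a cytosolic and a mitochondrial gene could be set side by side. The cytosolic gene was higher in both libraries for 14 of them, lower in both for 2 and mixed for 1. The median log2 ratio of cytosolic over mitochondrial TPM was 2.69 in replicate 1 and 3.09 in replicate 2, and 10 amino acids passed 4-fold in both libraries. Ratios of genes with few counts, such as Pars2 and Ears2, carry wide counting error.

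Proline, glutamate and asparagine had the largest ratios. For proline, Eprs exceeded Pars2 by 6.29 in replicate 1 and 8.20 in replicate 2 on the log2 scale. For glutamate, Eprs exceeded Ears2 by 6.32 and 7.05. For asparagine, Nars exceeded Nars2 by 5.72 and 5.60, the steadiest of the 3. The proline and glutamate ratios share 1 cytosolic gene, so they are not separate cases on that side.

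At the other end was phenylalanine, where the mitochondrial gene was the higher one. The mean of Farsa and Farsb was 9.56 TPM in replicate 1 and 7.01 TPM in replicate 2, against 28.05 and 26.0 TPM for Fars2. The log2 ratio was -1.55 in replicate 1 and -1.89 in replicate 2. For histidine, Hars had 6.81 and 7.98 TPM and Hars2 had 10.7 and 7.68 TPM, so the log2 ratio was -0.65 in replicate 1 and 0.06 in replicate 2. Hars and Hars2 lie head to head on opposite strands of chromosome 18 and share 195 exon bases. Whether strand was used in counting is not stated in the sources at hand. The deposited posterior SD of a count measures how uncertain the assignment of reads was. For both genes it was 0 in replicate 1 and 0.47 counts in replicate 2. How far reads in that stretch enter both levels was not tested. For threonine the log2 ratio was -0.16 in replicate 1 and -0.02 in replicate 2. These 3 ratios depended on the program. By the alignment-free program the log2 ratio for threonine was -1.48 in replicate 1 and -1.21 in replicate 2, beyond 2-fold, that for phenylalanine was -0.93 and -1.23, and that for histidine was -0.38 and -0.11.

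**Figure D2:**
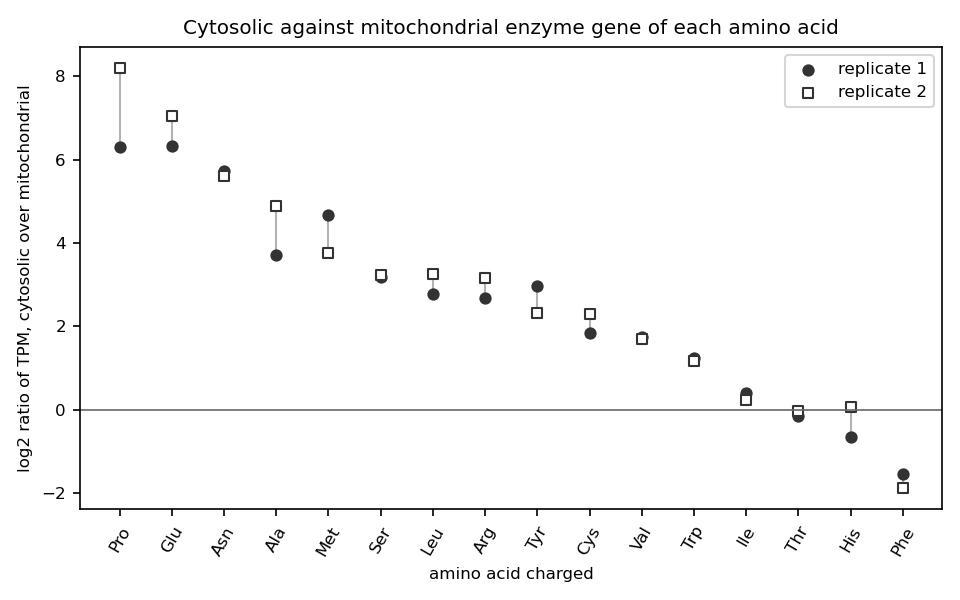
Log2 ratio of cytosolic over mitochondrial TPM for each of 16 amino acids, with filled circles for replicate 1 and open squares for replicate 2. The ratio falls below 0 in both libraries for threonine and phenylalanine, and it reached 6.29 in replicate 1 and 8.20 in replicate 2 for proline.

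Exons of 9 members overlap another gene with at least 20 counts over both libraries, namely Cars, Farsb, Hars, Mars and Yars among cytosolic genes and Cars2, Ears2, Hars2 and Iars2 among mitochondrial genes. The longest such stretch was in Iars2, where 2034 exon bases are shared with Rab3gap2 on the opposite strand. Rab3gap2 had 4030 and 3523 counts, against 446 and 349 for Iars2. The deposited posterior SD of the Iars2 count, which measures how uncertain the assignment of reads was, came to at most 1.89% of the count. Mars shares 68 exon bases with Ddit3, and Cars2 shares 422 with Naxd. How far neighbouring reads enter these levels was not tested.

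In animals, 8 cytosolic synthetases are held in 1 large assembly, the multisynthetase complex, together with 3 scaffold proteins. The genes of these 8 enzymes, Dars, Eprs, Iars, Kars, Lars, Mars, Qars and Rars, had a median of 20.5 TPM in replicate 1 and 13.9 TPM in replicate 2. The 12 cytosolic genes outside the complex had medians of 12.9 and 12.5 TPM. The enzymes inside the complex ranged from Kars at 5.41 ± 0.905 TPM to Eprs at 51.2 ± 2.45 TPM, so they had no common level, and the 2 ranges overlap widely. Of the scaffold genes, Aimp1 lay above Kars and Dars, and the other two lay below every enzyme of the complex, with Aimp1 at 8.82 and 8.19 TPM, Eef1e1 at 2.03 and 1.65 TPM, and Aimp2 at 1.35 and 1.17 TPM. Aimp2 rested on 14 and 10 counts, and its mean was 10.5 TPM by the alignment-free program, against 9.45 TPM for Aimp1. By that program Dars had a mean of 9.41 TPM, below Aimp2 and close to Aimp1, and Kars had 18.01 TPM, above both. The places of Aimp1 and Aimp2 in the order thus depend on the program.

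Synthetases fall into 2 classes by the fold of their catalytic domain, and Eprs joins one of each. The 9 cytosolic class I genes had a median of 21.5 TPM in replicate 1 and 16.1 TPM in replicate 2, and the 10 class II genes had 11.3 and 9.78 TPM. Among mitochondrial genes, class I had medians of 3.70 and 3.23 TPM and class II had 2.56 and 1.82 TPM. The class I median was the higher one for both kinds in both libraries, with ranges that overlap. Summed over mitochondrial genes the order was the other way, at 52.6 and 42.1 TPM for class I and 59.1 and 47.9 TPM for class II. Gars and Kars each encode both the cytosolic and the mitochondrial form of their enzyme. Without them, the cytosolic median was 17.8 TPM in replicate 1 and 13.6 TPM in replicate 2.

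Most genes that complete tRNA charging lay below the median of expressed genes. Mitochondria have no glutamine enzyme and make their glutaminyl-tRNA with an amidotransferase, whose subunit genes Gatb, Gatc and Qrsl1 had 2.88 and 2.22, 6.14 and 4.36, and 4.0 and 3.07 TPM in replicates 1 and 2. Mtfmt, which formylates the mitochondrial initiator tRNA, had 4.23 and 3.06 TPM. Their median of 3.59 ± 0.742 TPM was close to that of the mitochondrial synthetases. For selenocysteine, which is made on its tRNA, the kinase gene Pstk had 3.72 and 2.84 TPM and the synthase gene Sepsecs 8.41 and 10.6 TPM. Eefsec, the elongation factor that delivers that tRNA, had 1.42 and 1.81 TPM.

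Synthetase-like and proofreading genes were lower still, with a median of 0.51 ± 0.127 TPM. Tarsl2, a second threonine enzyme, had 12 and 11 counts, or 0.28 and 0.27 TPM, against 10.9 and 8.49 TPM for Tars. Aarsd1, which clears mischarged alanine tRNA, had 2.36 and 1.11 TPM, and Prorsd1, named for its likeness to a proline enzyme domain, had 2.46 and 3.15 TPM. Dtd1 and Dtd2, which remove D-amino acids and other wrong residues from tRNA, had 5 to 13 counts per library, at 0.27 and 0.60 TPM and at 0.42 and 0.17 TPM.

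Genes listed around the amino acid starvation response, which cells switch on when tRNA stays uncharged, ranged widely in the same libraries. The list also held kinases that sense other signals, among them Eif2ak2. Over 17 genes the median was 9.47 ± 0.368 TPM. Atf4 had 33.2 and 38.9 TPM, close to Ddit3, which encodes the stress factor CHOP, at 34.1 and 38.1 TPM. The highest was Eif2ak2, a kinase of the translation factor eIF2 that senses double-stranded RNA, at 152 ± 13.8 TPM. Next came Nupr1, a stress-induced chromatin protein gene, at 49.6 and 87.8 TPM, and Ppp1r15a, which reverses eIF2 phosphorylation, at 23.9 and 54.8 TPM. These 2 genes were lower in replicate 1 than in replicate 2. In replicate 1 Ppp1r15a lay below both Ddit3 and Atf4, and so did its alignment-free mean of 24.1 TPM, against 39.2 TPM for Ddit3 and 26.4 TPM for Atf4. Eif2ak4, the kinase that senses uncharged tRNA, had 15.9 and 10.6 TPM. The lowest genes were Ddit4 at 0.23 and 0.09 TPM, Chac1 at 0.47 and 0.60 TPM, Phgdh at 1.35 and 0.59 TPM, and Eif2ak3 at 1.21 and 0.96 TPM. Asns, the asparagine synthetase gene, a widely used marker of this response, had 9.21 and 9.91 TPM. Mean levels in the list thus ran from 0.16 TPM in Ddit4 to 152 TPM in Eif2ak2, and those of the synthetases from 0.405 to 89.3 TPM. Without Eif2ak2 the highest mean in the list was that of Nupr1 at 68.7 TPM, below the highest synthetase. No sample without lipid A was analysed here to set the levels of the list against.

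The 9 genes listed under translation elongation had a median of 17.5 ± 1.25 TPM. Eef1a1 stood at 226 and 212 TPM, Eef2 at 55.7 and 47.9, Eef1g at 35.6 and 37.3, and Gfm2, a mitochondrial factor, at 23.0 and 18.5 TPM. Lowest were Tsfm at 3.59 and 2.04, Eef1d at 6.98 and 5.88, Tufm at 8.01 and 5.61, and Gfm1 at 8.0 and 8.13 TPM. The mitochondrial elongation genes Tsfm, Tufm and Gfm1 thus lay in the range of the mitochondrial synthetases, with Gfm2 above most of them.

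The annotation holds 176 isoforms of the cytosolic and 123 of the mitochondrial genes, and the most numerous cytosolic class is the retained-intron class, isoforms that keep sequence which other isoforms of the gene splice out. Retained-intron isoforms made 56.6% of the summed cytosolic TPM in replicate 1 and 46.3% in replicate 2 (51.4% ± 7.26, SD, n = 2), against 33.5% and 32.1% of the mitochondrial TPM (32.8% ± 1.04). The shares of the 2 kinds did not overlap between libraries. The annotation lists 75 retained-intron isoforms among the 176 cytosolic and 38 among the 123 mitochondrial ones. How far the shares follow those numbers was not tested. Protein-coding isoforms made 38.8% ± 6.46 of the cytosolic and 48.1% ± 1.12 of the mitochondrial TPM. Isoforms marked for nonsense-mediated decay made 8.12% ± 0.297 and 7.69% ± 2.53, and processed transcripts without a reading frame made 1.66% ± 0.508 and 11.4% ± 2.45. Over all protein-coding genes at a mean of at least 1 TPM, the retained-intron share was 37.8%, which lies between the 2 kinds. Retained-intron isoforms are short, with a median length of 774 bases in cytosolic and 820 bases in mitochondrial genes, where protein-coding isoforms had 1970 and 1952, and TPM weighs a read on a short isoform more. As a share of expected counts the retained-intron class made 38.1% ± 4.68 of cytosolic and 28.4% ± 1.87 of mitochondrial counts. An unspliced precursor and a finished transcript that keeps an intron cannot be told apart in these tables.

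Gene by gene the gap was smaller. All 20 cytosolic and 14 of 17 mitochondrial genes have a retained-intron isoform. Its share of the gene's TPM exceeded 50% in 9 of 20 cytosolic and in 2 of 12 mitochondrial genes at a mean of 1 TPM, where 41.8% of 5998 expressed protein-coding genes with such an isoform passed. The cytosolic count of 9 of 20 was near that share. The median share was 47.4% over cytosolic and 35.1% over mitochondrial genes, and 45.1% over expressed protein-coding genes. By single isoform, a protein-coding one led in 14 cytosolic and 12 mitochondrial genes, a retained-intron one in 6 and 4, and 1 mitochondrial gene, Wars2, was led by a decay isoform. The leading class was not counted over all protein-coding genes.

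Among genes at a mean of at least 1 TPM, Farsa had the highest retained-intron share, 88.5% in replicate 1 and 89.5% in replicate 2. Mars followed with 86.8% and 77.2%, Vars with 76.4% and 65.4%, Qars with 78.4% and 63.4%, and the mitochondrial Hars2 with 67.5% and 66.3%. In Farsa the class held 91.2% of the counts too, so that share did not hang on isoform length, whereas in Hars2 it held 26.5% of the counts. Sars2 and Nars2 were low at 14.8% and 14.7% on average, Wars2 had 8.65% and 11.9%, and Yars2, the mitochondrial tyrosine enzyme, was listed at 0 in both libraries. Iars shows how much length can matter in a cytosolic gene, since its retained-intron share was 37.2% of TPM and 3.61% of counts.

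**Figure D3:**
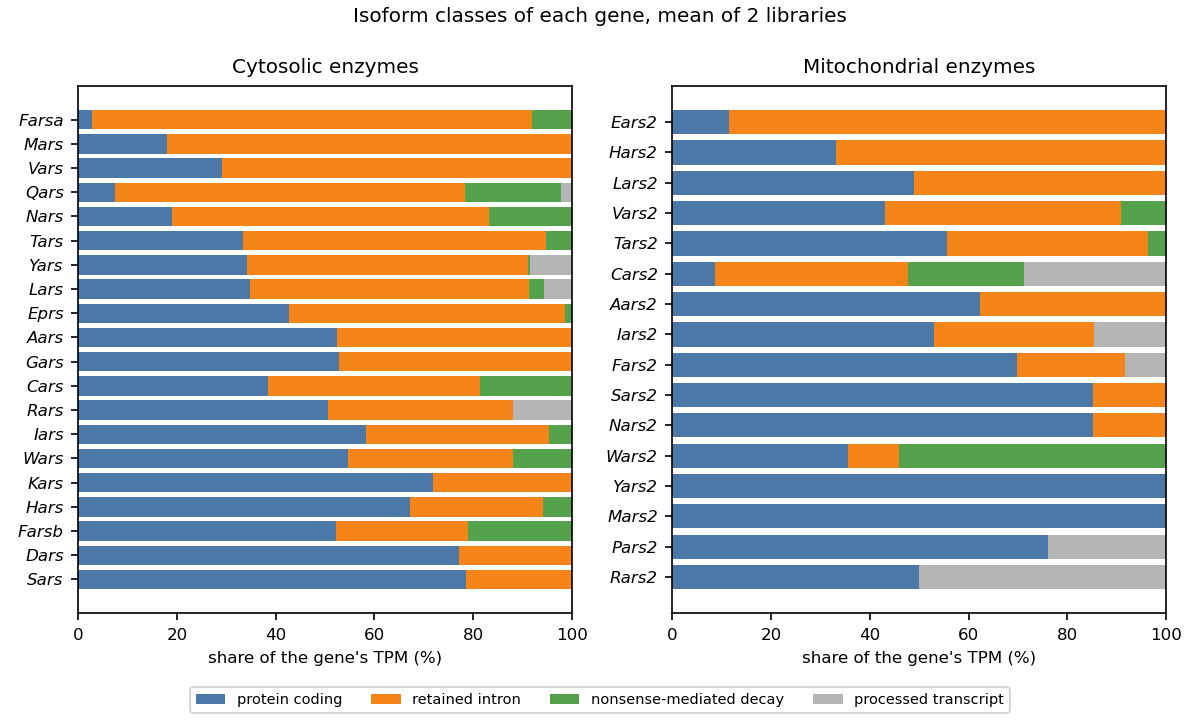
Share of each gene's TPM held by 4 isoform classes, as the mean of 2 libraries, for 20 cytosolic enzymes on the left and 16 mitochondrial enzymes on the right, ordered by the retained-intron share. Retained-intron isoforms (orange) held 51.4% of the summed cytosolic TPM and 32.8% of the summed mitochondrial TPM, and 89.0% in Farsa at the top of the cytosolic panel.

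In 12 of 34 genes the leading retained-intron isoform spans at least 1 whole intron of a protein-coding isoform, in 7 of 20 cytosolic and 5 of 14 mitochondrial genes. Over all retained-intron isoforms, 36 of 412 cytosolic introns (8.74%) and 21 of 246 mitochondrial introns (8.54%) were kept whole in at least 1 isoform. Neither the genes nor the introns were counted in this way over all protein-coding genes. The kept introns were short, with a median of 138 bases against 1046 bases for the other introns in cytosolic genes, and 188 against 1171 bases in mitochondrial genes. The annotation, not these libraries, fixes which introns count as kept. An intron counted as kept only where it lay inside 1 exon of a retained-intron isoform. Those isoforms are short, so long introns could seldom be called kept, and the difference in length was partly fixed by that rule. Sequence is shown for 5 of these isoforms. Aars-205, at 8.55 and 6.73 TPM, keeps 4 introns, among them chr8:111041670-111042240 (mm10, plus strand, 571 bases). Kars-206, at 1.98 and 1.13 TPM, keeps chr8:112002605-112003274 (minus strand, 670 bases). Qars-206, at 4.42 and 2.83 TPM, keeps chr9:108512583-108512699 (plus strand, 117 bases).

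Mitochondrial examples were Tars2-218 and Iars2-205. Tars2-218, at 4.08 and 3.08 TPM, keeps 3 introns, among them chr3:95750766-95750866 (minus strand, 101 bases). Iars2-205, at 2.76 and 2.34 TPM, keeps 4 introns, among them chr1:185323236-185323666 (minus strand, 431 bases). Both ends of each intron are shown from the GENCODE M21 transcripts, 5′ to 3′, because they mark the splice sites that these isoforms leave unused. Exon bases are in lower case and intron bases in capitals, 20 of each.
Aars donor: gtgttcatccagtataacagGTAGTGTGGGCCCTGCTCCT
Aars acceptor: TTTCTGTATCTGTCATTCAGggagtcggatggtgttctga
Kars donor: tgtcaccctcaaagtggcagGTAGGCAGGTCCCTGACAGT
Kars acceptor: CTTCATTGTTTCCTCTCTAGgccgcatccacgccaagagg
Qars donor: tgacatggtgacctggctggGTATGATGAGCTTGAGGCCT
Qars acceptor: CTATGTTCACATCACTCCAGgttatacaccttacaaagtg
Tars2 donor: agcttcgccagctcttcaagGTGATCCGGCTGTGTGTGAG
Tars2 acceptor: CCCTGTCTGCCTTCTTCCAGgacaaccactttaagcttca
Iars2 donor: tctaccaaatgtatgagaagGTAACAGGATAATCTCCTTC
Iars2 acceptor: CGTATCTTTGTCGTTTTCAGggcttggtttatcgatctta
All 5 introns open with GT and close with AG, the letters of the usual splice sites, and the GC content of these introns ran from 48.3% in Iars2 to 56.4% in Tars2.

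Promoter sequence was matched for 26 of the 37 genes, 12 cytosolic and 14 mitochondrial, from RefSeq windows of 250 bases before to 50 bases after the start (GRCm38.p6). Among those not matched were Cars, Hars, Hars2, Lars, Mars, Nars, Pars2, Rars, Vars and Wars. The core of the CARE element, which ATF4 and its partners of the C/EBP family bind, was searched as TGATGNAA on both strands. It was found in 5 of 12 cytosolic windows (Aars, Gars, Iars, Tars and Yars) and in 0 of 14 mitochondrial windows, where 3.99% of 16522 protein-coding genes with an entry held it. Those 5 genes had mean levels of 31.1, 12.8, 9.76, 9.71 and 18.8 TPM, from the lower to the upper part of the cytosolic range. An E-box, CACGTG, was found in 4 of 12 cytosolic (Aars, Farsb, Iars and Tars) and 1 of 14 mitochondrial windows (Ears2), and in 9.18% of protein-coding genes. The ETS core, CCGGAAG on either strand, was found in 4 of 12 cytosolic (Farsa, Gars, Kars and Sars) and 4 of 14 mitochondrial windows (Cars2, Mars2, Rars2 and Sars2), and in 13.4% of protein-coding genes. No matches of 2 different motifs overlapped in these windows. A match describes the letters and is not evidence of binding. Matches of the CARE core before the start of 2 genes are shown with up to 11 bases on each side, the match in capitals as it reads on the gene's strand, where it is the reverse complement of the searched letters.
Gars, chr6:55037960-55037989, plus strand: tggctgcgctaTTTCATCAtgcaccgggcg
Tars, chr15:11399659-11399684, minus strand: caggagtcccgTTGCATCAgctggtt
The match in Gars begins 30 bases before the start, and that in Tars 15. Within the first bases after the start, TGATGCAA begins at base 4 of Yars and TTGCATCA at base 8 of Iars.

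Replicate 1 and replicate 2 were then set against each other gene by gene. After scaling by TMM, the trimmed mean of M-values, 36 members had at least 10 counts in each library, and Pars2 did not. None of the 36 passed 2-fold in either direction, where 3.28% of 10348 protein-coding genes were over 2-fold higher in replicate 1 and 3.23% over 2-fold higher in replicate 2. The median log2 ratio of replicate 1 over replicate 2 was 0.08 over cytosolic and 0.30 over mitochondrial genes, against 0.03 over all protein-coding genes tested. It was above 0 in 14 of 20 cytosolic and 12 of 16 mitochondrial genes, and in 5443 of the 10348 protein-coding genes. The starting RNA differed between the libraries, at 250 ng in replicate 1 and 500 ng in replicate 2, and cannot be told apart from other differences between them.

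The largest ratios in favour of replicate 1 were those of Aars2, Vars, Ears2 and Rars2. Aars2, the mitochondrial alanine enzyme, had 80 counts in the first replicate and 43 in the second, which gave 0.76 on the log2 scale with a 95% counting interval of 0.21 to 1.33. Vars had 193 and 105 counts, a ratio of 0.75 (0.39 to 1.10). Ears2 had 36 and 20 counts and a ratio of 0.71 (-0.11 to 1.58), and Rars2, the mitochondrial arginine enzyme, had 77 and 44 counts and a ratio of 0.67 (0.12 to 1.24). Apart from Ears2, these intervals lie above 0.

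In the other direction, Yars2 had 86 counts in the first replicate and 118 in the second, which gave -0.59 (-1.01 to -0.18). Mars2 had 102 and 118 counts and a ratio of -0.34 (-0.74 to 0.05). Rars had 495 and 535 counts and a ratio of -0.25 (-0.42 to -0.07), and Cars had 1818 and 1911 counts and a ratio of -0.21 (-0.30 to -0.11). The narrowest intervals belong to the genes with the most reads, so the small ratios of Cars and Eprs lie outside counting error while the larger ones of some sparse mitochondrial genes, such as Ears2, do not.

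**Figure D4:**
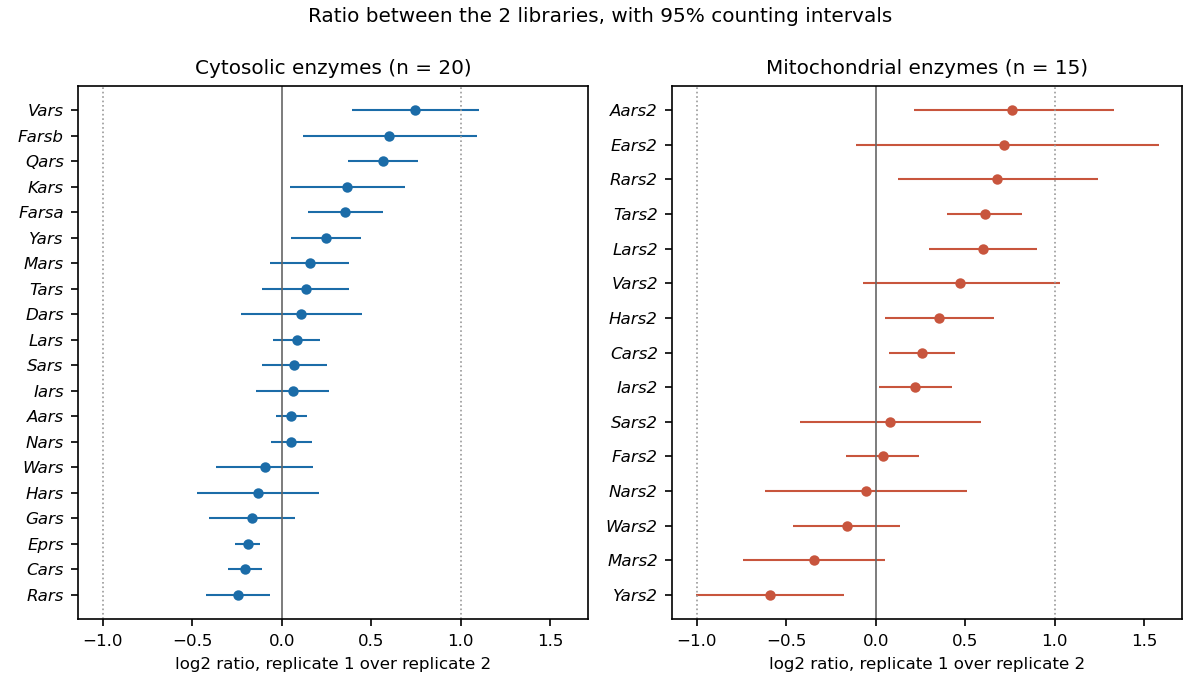
Log2 ratio of replicate 1 over replicate 2 for 20 cytosolic genes on the left and 15 mitochondrial genes on the right, with bars for 95% counting intervals and dotted lines at 2-fold. No point passes 2-fold, from Aars2 at 0.76 to Yars2 at -0.59.

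The alignment-free program assigns reads to transcripts without aligning them. Of the 33 members at a mean of at least 1 TPM, 5 were over 2-fold higher by it than by the alignment-based one, where 18.5% of expressed protein-coding genes were, so the share in the family was near that of other genes. None was over 2-fold lower, where 0.323% of genes were. Farsb and Rars2 differed most, at 14.4 against 3.97 TPM and 13.2 against 3.64 TPM on average, 3.62-fold in both. Kars had 18.01 against 5.41 TPM, 3.33-fold. Tars2 had 34.4 against 10.4 TPM, 3.30-fold, and Wars2 had 7.70 against 3.82 TPM, 2.02-fold. By the alignment-free program the mean of Tars2 stood above that of Fars2, at 32.6 TPM, but the libraries differed in this. In replicate 1 Tars2 had 41.3 and Fars2 33.5 TPM, while in replicate 2 Tars2 had 27.5 and Fars2 31.6 TPM. By the same program Kars and Farsb were no longer among the lowest cytosolic genes, so their places in the order depend on the program.

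The programs also chose different isoforms in places. In Wars2 the decay isoform Wars2-203 had 0.06 and 0.10 TPM by the alignment-free program, against 1.77 and 2.39 TPM by the alignment-based one. The protein-coding Wars2-201 had 4.64 and 5.36 TPM by the alignment-free program, against 1.23 and 1.09 TPM. In Iars the protein-coding Iars-206 had 0.0039 and 1.32 TPM by the alignment-free program, against 5.65 and 5.58 TPM. For these isoforms the programs lay further apart in TPM than the libraries did. As a ratio, though, the alignment-free level of Iars-206 also differed widely between the libraries. In Cars, where the gene levels differed by 1.21-fold, the protein-coding Cars-202 had 27.5 and 32.9 TPM by the alignment-free program and 24.7 and 33.2 TPM by the alignment-based one. Isoform shares of single genes such as Wars2 and Iars are therefore less certain than their gene levels. Summed over the cytosolic genes, the retained-intron share was 53.1% by the alignment-free program and 51.4% by the alignment-based one.

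**Figure D5:**
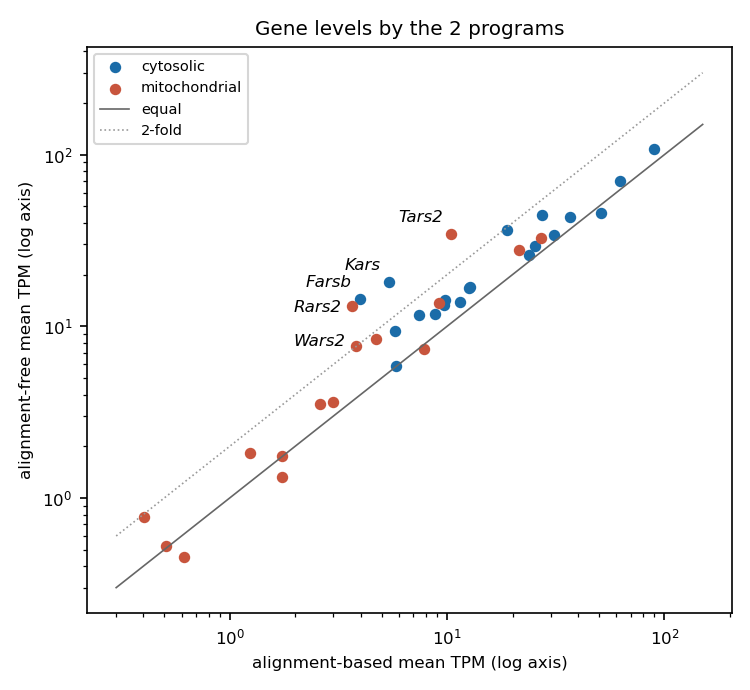
Mean TPM of 36 synthetase genes by the alignment-based program on the x axis and by the alignment-free program on the y axis, both on log axes, with cytosolic genes in blue and mitochondrial genes in red. The solid line marks equal levels and the dotted line 2-fold. The 5 named genes lie above the dotted line, from Wars2 at 2.02-fold to Farsb and Rars2 at 3.62-fold.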

How the data were processed

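Chromatin-bound total RNA was measured in 2 libraries of 1 condition. The deposited expected counts and TPM values per gene and transcript came from alignments to mm10 with GENCODE M21, per the submitters' description files, under column names that RSEM writes, per the file headers. The deposited posterior SD of each count came with them. The deposited estimated counts and TPM of a second table were made without alignment, and per the file headers its columns are named as kallisto names them. Program versions and strand settings are not stated in the sources at hand. TPM was scaled by the authors over all entries, spike-ins included.

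Names, classes and coordinates were read from GENCODE M21. Python 3.11.15, pandas 2.3.3 and SciPy 1.17.1 summed transcripts per gene and class. Expected counts were rounded, kept at 10 or more in each library, and scaled with TMM (edgeR 4.0.16), or with size factors (DESeq2 1.42.0) or totals as alternatives. TMM moved the log2 ratio of all genes by 0.07 against totals. Intervals are exact binomial for ratios and Wilson for shares, at 95%. On data simulated with counting noise alone, the ratio step, run on 13501 genes, passed 100% of 188 genes changed 4-fold between replicates 1 and 2, and 49 of 13313 unchanged genes past 2-fold.

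The members and the 6 lists (41 symbols, all matched; Ddit3 has a pair of gene IDs, of which the lower was used) were chosen with earlier results of these data known. Named in full were the 6 highest and 3 lowest genes of each kind by mean TPM, the amino acids with the 3 largest and 2 smallest ratios, the 4 largest replicate ratios each way, and the 5 highest and 3 lowest retained-intron shares at a mean of 1 TPM. Named too were members over 2-fold apart between programs, all tRNA-charging partners, and the 4 highest and lowest genes of the other lists. Atf4, Asns, Eif2ak4, Tars, Iars, Gars, Yars, Sars2, Hars and Qars were named outside that rule, after their values were seen. The values of 1 member and of 1 promoter stretch are not reported here.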

Additional observations from a re-analysis of the deposited data

How the results depend on the processing

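The order of the 2 kinds held in every alternative run, while the levels moved. Rescaling TPM to protein-coding genes multiplies all genes of a library by 1 factor, so that run could not change the order. The cytosolic median of 13.2 TPM was 17.9 by the alignment-free program, 49.1 when TPM was rescaled to protein-coding genes, 5.43 from protein-coding isoforms only and 15.7 without Gars and Kars. It ranged from 12.5 to 13.9 when either library was left out. The mitochondrial median of 2.90 TPM was 3.65 by the alignment-free program, 10.7 when rescaled in that way, 1.53 from protein-coding isoforms only, 3.87 over members at a mean of 1 TPM and 2.59 without members whose exons overlap another gene with reads, an alternative chosen after seeing the data. It ranged from 2.77 to 3.02 when either library was left out. The cytosolic gene was the higher one for 14 or 15 of 17 amino acids by the alignment-free program, with TPM rescaled, from protein-coding isoforms only and with either library left out, which were the alternatives run for it. Of these, rescaling could not change the count, and leaving a library out could only keep or raise it.

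The cytosolic retained-intron share of 51.4% was 38.1% of expected counts and ran from 46.3% to 56.6% when either library was left out. The mitochondrial share of 32.8% was 30.2% by the alignment-free program and 28.4% of expected counts, and ran from 32.1% to 33.5%. The count of members past 2-fold between the libraries was 0 with each scaling of the alignment-based counts. By the alignment-free program it was 2, namely Aars2 (123 and 53 estimated counts, log2 ratio 1.12) and Vars (320 and 145, 1.05). The share of all protein-coding genes past 2-fold by the alignment-free program was not computed. The median ratio of the cytosolic genes was 0.08 with TMM, 0.10 with DESeq2 size factors and 0.15 with totals, and that of the mitochondrial genes 0.30, 0.33 and 0.38, against 0.03, 0.05 and 0.10 over all protein-coding genes. No paired analysis was possible because both libraries belong to 1 group.

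With 2 libraries the SD of a level is itself uncertain. Depth limits the mitochondrial genes most, since Pars2 had 13 and 8 counts and Ears2 had 36 and 20, and their TPM, ratios and isoform shares rest on those reads.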
